A study of Mus musculus with 18 samples.

Results

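The untreated D5 cells described here are the 4 libraries, of 18 in the series, for which the authors deposited levels in TPM (transcripts per a fixed total). This unit divides reads by transcript length and by the library's total, so levels can be set side by side between genes as well as between libraries. The members were taken by their columns, D5 control replicates 1 to 4, in a table of 23337 genes. The cells were mouse embryonic stem cells of the A2Lox.cre background, line GLI1-FTA, that had been differentiated toward cardiomyocytes and harvested at D5, and the labels call them cardiac progenitor cells. The study used this line to overexpress GLI1 with doxycycline, 500 ng/ml over 24 hours from D5 to D6, and none of these 4 libraries had received it. Stranded polyA libraries were read from 1 end over 50 bases, and the D5 columns of the deposited count table hold 24842624 to 26184339 counts each. Nothing in the labels says whether the replicates came from separate cultures or whether the line is 1 clone, so an SD below measures only the spread between these libraries, which may be technical.

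Heart cells descend from mesoderm that leaves the primitive streak and is then patterned by secreted signals of the BMP, WNT, FGF, Nodal, Notch, retinoic acid and Hedgehog families. Early cardiac mesoderm is commonly divided into the first heart field, marked by Tbx5 and Hcn4, and the second heart field, marked by Isl1 and Fgf10, whose cells keep dividing and are known to answer Hedgehog signals. A cell can answer only a signal whose receptors it makes, so the receptor genes come first below, then the transcription factors, and then the genes of the heart and of other lineages.

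The libraries did not agree equally well with each other. Across the 12888 genes with a mean of at least 1 TPM, Pearson's r of log2(TPM + 1) was 0.995 between replicates 1 and 2, 0.962 between replicates 1 and 3 and also between replicates 2 and 3, 0.952 between replicates 1 and 4, 0.950 between replicates 2 and 4 and 0.972 between replicates 3 and 4. Only 52 of these genes, 0.403%, differed by more than 2-fold on the scale of TPM + 1 between replicates 1 and 2. The share was 6.71% between replicates 1 and 3, 7.11% between replicates 2 and 3, 9.08% between replicates 1 and 4, 9.68% between replicates 2 and 4 and 5.58% between replicates 3 and 4. Replicates 1 and 2 were thus the closest pair, and replicates 3 and 4 stood apart from both and from each other. Each of the 6 pairs of D5 count columns differed by more than sampling noise, which gives a chi-square near 1 per gene: the closest pair had a value of 6.86 and the other 5 had 50.5 to 93.7, so all 4 were counted as samples. The value covers counting noise only and does not tell separate cultures from separate library preparations. The count columns carry numbers that match no replicate label, so a count column is not assigned to a replicate here. Values in 4 libraries are given below in the order of replicates 1, 2, 3 and 4.

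**Figure D1:**
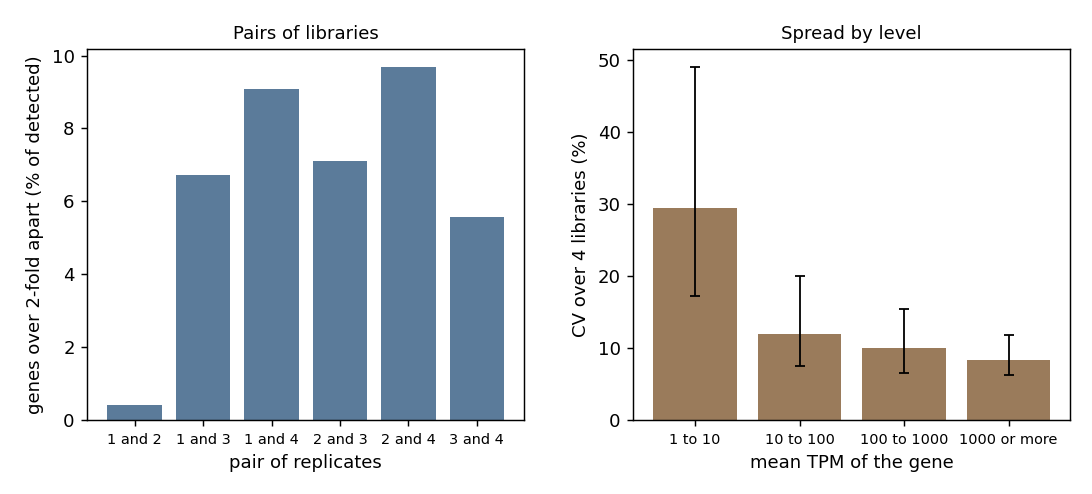
Agreement of the 4 untreated D5 libraries over the 12888 genes with a mean of at least 1 TPM. Left, the share of genes more than 2-fold apart on the scale of TPM + 1 for each pair of replicates, which runs from 0.403% for replicates 1 and 2 to 9.68% for replicates 2 and 4. Right, the median coefficient of variation (CV) over the 4 libraries by mean TPM, with error bars from the 25th to the 75th percentile of genes: it is 29.5% at 1 to 10 TPM and 8.35% at 1000 TPM or more.

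The spread depended on the level. The median coefficient of variation, the SD as a percentage of the mean, was 29.5% among the 3587 genes at 1 to 10 TPM, 11.98% among the 7318 at 10 to 100 TPM, 10.02% among the 1853 at 100 to 1000 TPM and 8.35% among the 130 at or above 1000 TPM. A level near 1 TPM stood on a median of 24 counts per D5 column. In all, 1977 genes, 15.3% of the 12888, had a highest value more than 2-fold above the lowest on the scale of TPM + 1. The count was 1809 without replicate 1, 1698 without replicate 2, 1454 without replicate 3 and 1080 without replicate 4. The lists described below held 529 detected genes of 671, and 267 of the 529, or 50.5%, had such a range, against 15.3% of all detected genes. The lists were chosen with earlier results of these data known, so the higher share may come from that choice and is not read as a result. Between replicates 1 and 2 just 2 of the 529 differed by more than 2-fold, against 124 between replicates 3 and 4.

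The label was checked against 12 genes known from cardiac progenitors. Of these, 11 were at or above 1 TPM in every library and 10 averaged at least 10 TPM. Mesp1, which marks the earliest cardiac mesoderm and is known to be transient, was the exception, at 0, 0.251, 2.38 and 1.14 TPM. The 12 genes summed to 472, 408, 1058 and 1004 TPM. All 12 were highest in replicate 3 (4 genes) or replicate 4 (8 genes), and 8 were lowest in replicate 2. In bulk RNA fewer cells of a type and less RNA per cell cannot be told apart, and this holds for every level below.

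Of the 23337 genes listed, 12888 averaged at least 1 TPM, 9301 at least 10 TPM, 1983 at least 100 TPM and 130 at least 1000 TPM. Genes that averaged at least 1 TPM are called detected. They made up 55.2% of all genes, the share beside which the detected counts of the lists below are to be read. The 1983 genes at or above 100 TPM held 69.9% of all TPM and the 130 at or above 1000 TPM held 27.0%. At the top stood Eef1a1, the translation elongation factor, at 11581 ± 1018 TPM (SD, n = 4). Igf2, the imprinted growth factor, followed at 4849.6 ± 608 TPM, ahead of the tropomyosin gene Tpm1 at 4475 ± 236 TPM and the translation-associated gene Tpt1 at 4279.7 ± 264 TPM. Of the 12 highest genes, 4 encode ribosomal proteins, among them Rps12 and Rpl32. The smooth muscle actin gene Acta2 was the 1 gene of the 12 that varied more than 2-fold, at 5572, 6272, 2368 and 1299.7 TPM in replicates 1 to 4.

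Hedgehog signalling works through the receptor Ptch1, which holds the transducer Smo in check until a ligand binds, and ends in the GLI factors. The ligand genes were low. Shh was at 0.764, 1.68, 1.33 and 0.241 TPM, Dhh at 0.255, 0.191, 0.385 and 0.195 TPM and Ihh at 0, 0, 0 and 0.108 TPM. Receptors were higher: of 8 receptor and co-receptor genes, 7 were detected. Smo was the highest and hardly varied, at 87.3, 86.8, 88.97 and 93.7 TPM, and its range did not overlap that of any other gene of the list. Ptch1 was at 21.98, 23.7, 15.8 and 14.9 TPM. The co-receptor genes Cdon, Gas1 and Boc, whose products help Ptch1 bind ligand, were at 60.8, 68.5, 25.8 and 36.1 TPM, at 39.8, 44.6, 31.7 and 21.5 TPM and at 13.5, 15.4, 6.85 and 7.28 TPM. All 4 of these genes were higher in replicates 1 and 2 than in replicates 3 and 4, while Smo showed no such pattern.

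The GLI genes differed in both level and spread. Gli3, the GLI factor known mainly as a repressor, was at 36.3, 42.6, 38.4 and 37.7 TPM, and Gli2, the main activator, at 21.6, 23.9, 24.8 and 33.8 TPM. Gli1, itself a target of the pathway, was lower, at 5.14, 6.21, 2.37 and 1.04 TPM, with 36 to 258 counts in the D5 columns. Replicate 2 held the most Gli1 and replicate 4 the least, the same 2 libraries that were highest and lowest for Ptch1. The other transducers were steady: all 14 genes of that list were detected, and Gli1 alone had a range above 2-fold. Sufu, which binds and restrains GLI proteins, was at 26.01, 24.8, 35.7 and 46.1 TPM, Disp1, which releases ligand, at 28.5, 34.8, 23.2 and 21.2 TPM, and the GLI-degrading adaptor gene Spop at 85.99, 82.8, 82.7 and 63.4 TPM.

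BMP ligands promote cardiac fate in mesoderm. Bmp4 was the highest ligand gene, at 209.7, 229, 279.6 and 160.1 TPM, and its range did not overlap that of Bmp7, at 126, 121, 69.9 and 129 TPM. Bmp5 was at 70.4, 62.3, 124 and 161 TPM, highest in replicate 4, where the BMP antagonist gene Nog was lowest, at 48.9, 59.6, 39.7 and 12.5 TPM. Bmp6 ran the other way from Bmp5, at 33.1, 32.8, 9.58 and 3.39 TPM. Among the receptors, Bmpr1a was both the highest and among the steadiest genes described here, at 121, 117, 119 and 124 TPM. The type II receptor gene Bmpr2 was at 32.7, 36.6, 24.1 and 25.1 TPM, and Acvr1 at 21.2, 21.5, 26.2 and 17.7 TPM. The list of BMP targets and SMADs also holds signal transducers such as Smad1 and Smad4. Of its 12 genes 9 had a range above 2-fold, all of them lower in replicates 1 and 2 than in replicate 3. Among the BMP receptors 4 of 7 genes had such a range. Id3, an inhibitor of bHLH factors, was at 152, 109, 407 and 388 TPM, Id1 at 83.5, 59.4, 175 and 172 TPM and the homeobox gene Msx1 at 4.16, 3.14, 50.5 and 34.4 TPM. The 12 genes summed to 682, 563, 1407 and 1226 TPM.

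Nodal, activin and TGF-beta share SMAD2 and SMAD3. Tgfb2 was the highest ligand gene, at 197, 191, 146 and 174 TPM. Nodal, which patterns the streak and the left side, was at 29.4, 32.9, 19.9 and 2.43 TPM, and its co-receptor gene Cfc1 at 6.32, 5.02, 44.3 and 78.8 TPM, so that replicate 4 was lowest for Nodal and highest for Cfc1. Tdgf1, the other co-receptor of that family, was at 60.4, 40.1, 26.5 and 39.2 TPM. The receptors were steady: Tgfbr1 was at 109, 103, 86.3 and 97.5 TPM and Acvr1b at 34.5, 33.5, 42.03 and 37.5 TPM, and only Tgfbr3, of 8 detected genes on that list, had a range above 2-fold, at 8.91, 9.76, 10.2 and 3.799 TPM.

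WNT signals act early to make mesoderm and must later be blocked for heart cells to form. Ctnnb1, which encodes beta-catenin, was at 773, 747, 714 and 694 TPM. Fzd7 was the highest frizzled gene, at 89.7, 97.9, 189 and 203 TPM, and Fzd2 ran the other way, at 95.5, 109.7, 73.4 and 62.3 TPM. Ryk, at 98.2, 98.6, 122 and 92.6 TPM, and the co-receptor gene Lrp6, at 46.8, 49.6, 45.7 and 45.2 TPM, stayed within a narrow range. Among 20 ligand and antagonist genes 16 were detected, none above 100 TPM on average. Rspo3, an enhancer of WNT signalling, was at 51.3, 49.7, 125 and 41.4 TPM, the WNT inhibitor gene Dkk1 at 42.8, 36.4, 32.04 and 37.7 TPM and the non-canonical ligand gene Wnt5a at 29.8, 28.7, 34.3 and 38.9 TPM. Wnt11, a non-canonical ligand of the heart, was at 8.44, 6.47, 4.56 and 1.14 TPM, and the antagonist gene Sfrp5, a marker of inflow progenitors, at 0.988, 0.883, 10.6 and 36.02 TPM. The nuclear factor gene Lef1 was at 75.1 TPM in replicate 3, where Rspo3 and Wnt4 were also highest, at 39.8 TPM in replicate 4 and at 25.5 TPM in replicate 2, with replicate 1 just below.

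FGF signals keep second heart field cells dividing. The ligand gene Fgf10 was at 66.9, 70.8, 28.6 and 26.04 TPM, higher in replicates 1 and 2 than in replicates 3 and 4, and Fgf8 at 12.6, 16.6, 8.16 and 11.4 TPM. Of 16 FGF ligand genes 9, or 56.3%, were detected, near the 55.2% of all genes. Fgfr1 was the highest receptor gene, at 76.8, 79.6, 87.04 and 108 TPM, and Fgfr3 was at 22.7, 23.4, 67.2 and 75.6 TPM. The genes known to be switched on by FGF as feedback were all detected, 7 of 7, and only 1, Il17rd, had a range above 2-fold, at 45.5, 45.8, 49.9 and 99.9 TPM. Dusp6, a phosphatase of ERK, was at 147, 139, 125 and 249.6 TPM, and the receptor antagonist gene Spry2 at 119, 118, 170.2 and 158 TPM. The feedback list summed to 501, 488, 479 and 712 TPM, highest in replicate 4.

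Notch receptors are turned on by ligands on neighbouring cells. Of 9 receptor and ligand genes 6 were detected. Jag1 was the highest ligand gene, at 73.3, 70.01, 29.4 and 79.1 TPM, and Dll1 was under 1 TPM, at 0.229, 0, 0.42 and 0.343 TPM. Notch3, at 36.5, 45.2, 46.3 and 27.98 TPM, and Notch2, at 24.5, 30.7, 21.2 and 26.1 TPM, overlapped in range, and Notch1 was below both, at 6.84, 7.75, 14.2 and 11.3 TPM. The target gene Hes1 was at 45.5, 48.1, 76.2 and 63.97 TPM.

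Among other growth factor receptors Igf2r, which clears IGF2, was the highest, at 682, 683, 447 and 372 TPM. Kdr, the VEGF receptor of early cardiovascular progenitors, was at 16.4, 13.4, 32.8 and 28.9 TPM, and Pdgfra, the other surface marker commonly used to sort them, at 4.94, 4.75, 36.04 and 42.6 TPM. Replicates 3 and 4 held more of both than replicates 1 and 2. Tek, the angiopoietin receptor gene, was at 6.68, 4.98, 63.3 and 27.1 TPM, and the semaphorin and VEGF co-receptor gene Nrp1 at 79.6, 76.5, 248 and 123 TPM, both highest in replicate 3. The ligand gene Vegfa varied little, at 67.6, 76.5, 81.1 and 71.02 TPM. Of the 17 detected receptor genes of this list 11 had a range above 2-fold, and 5 had one without replicate 3.

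One of the widest receptor differences between libraries was that of Aplnr, the apelin receptor of migrating mesoderm, at 3.73, 4.59, 32.4 and 133 TPM. Its mean was 43.3 TPM with replicate 4 and 13.6 TPM without it, and its counts ran from 152 to 5132. Cxcr4, the receptor of the chemokine CXCL12, was at 4.01, 4.05, 14.03 and 10.6 TPM, while the ligand gene Cxcl12 was at 305, 272, 64.1 and 6.14 TPM. The receptor was higher in replicates 3 and 4 and the ligand in replicates 1 and 2. S1pr2, a sphingosine phosphate receptor gene, was at 57.1, 61.2, 75.7 and 89.2 TPM.

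Retinoic acid patterns the heart tube from front to back. Its synthesis gene Aldh1a2 was low, at 0.734, 1.018, 2.36 and 3.99 TPM, while the receptor genes Rarg, at 19.8, 27.8, 28.9 and 27.01 TPM, and Rxrb, at 31.5, 31.4, 34.4 and 35.2 TPM, were steady. The binding protein gene Crabp1 was at 98.1, 67.7, 31.96 and 165 TPM and Crabp2 at 55.7, 43.8, 15.2 and 27.1 TPM. Stra6, which takes up retinol and is itself switched on by retinoic acid, was near 2 TPM except in replicate 4, at 1.62, 1.59, 1.85 and 22.7 TPM.

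**Figure D2:**
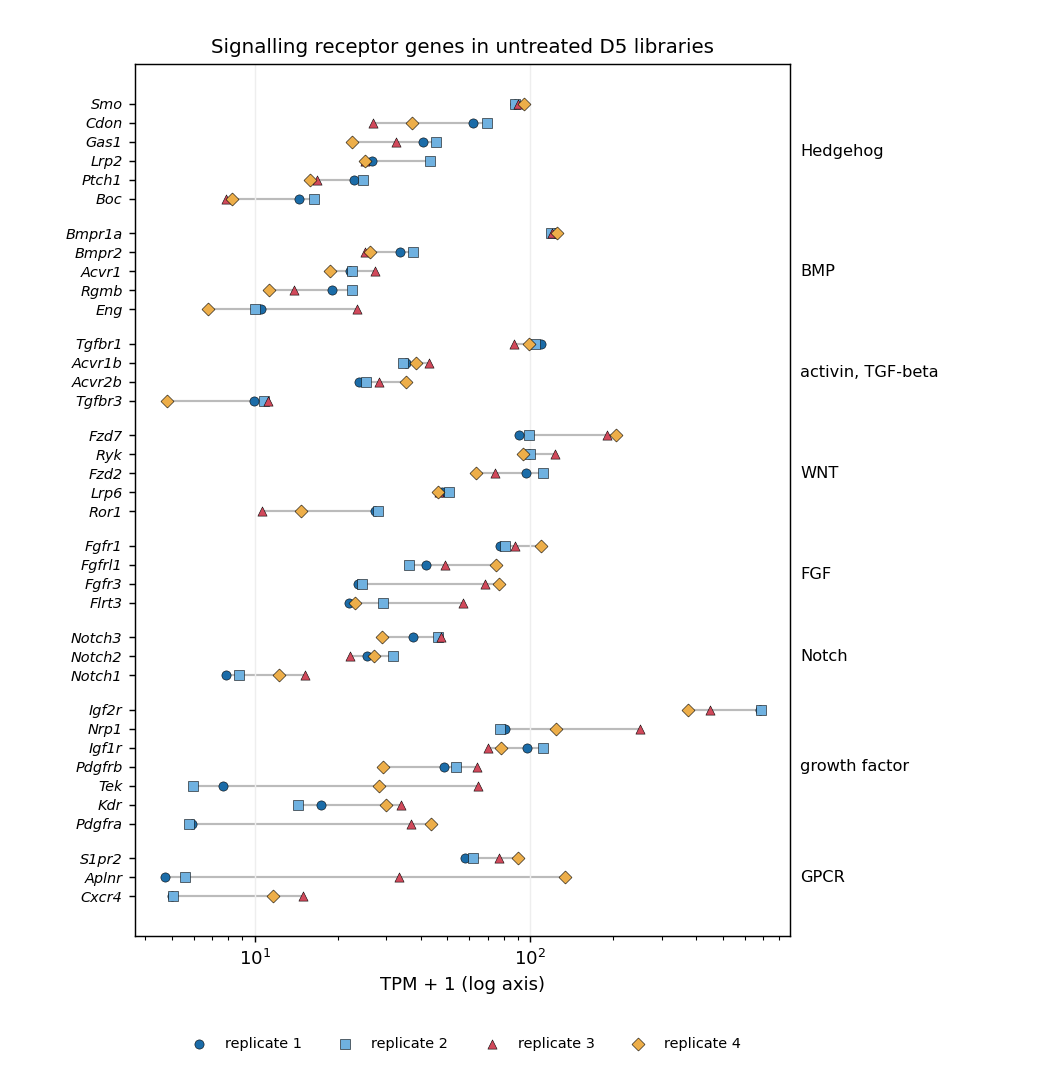
Levels of signalling receptor and co-receptor genes in the 4 untreated D5 libraries, as TPM + 1 on a log axis. Each marker is 1 library and each grey line spans the lowest to the highest. Smo, Bmpr1a, Tgfbr1 and Lrp6 have short lines, while Aplnr (3.73 to 133 TPM), Pdgfra (4.75 to 42.6 TPM) and Tek (4.98 to 63.3 TPM) have long ones.

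Cardiac transcription factor genes were present in every library but in different proportions. Of 31 core factors all were detected, and 25 had a range above 2-fold. Without replicate 3 or without replicate 4 the count was 18. Hand1, a bHLH factor of the first heart field, the juxtacardiac field and extraembryonic mesoderm, was at 40.9, 40.8, 412 and 108 TPM. Its mean was 150.5 TPM with replicate 3 and 63.2 TPM without it. Hand2, its relative of the second heart field, was at 88.3, 77.9, 123 and 199 TPM, highest in replicate 4 instead. Gata4 was at 51.6, 48.7, 147 and 151 TPM and Tbx20 at 67.4, 52.5, 139.8 and 117 TPM, so that replicates 3 and 4 lay together and above replicates 1 and 2. Gata6 was at 53.7, 45.7, 61.6 and 95.4 TPM and Mef2c at 84.1, 69.3, 57.98 and 113 TPM.

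Nkx2-5, Isl1 and Tbx5 were each highest in replicate 4. Nkx2-5, the homeobox factor of cardiac commitment, was at 15.5, 16.6, 11.2 and 56.1 TPM, a mean of 24.9 TPM that was 14.5 TPM without replicate 4. Isl1, the factor of the second heart field, was at 46.2, 35.7, 22.2 and 74.6 TPM. Tbx5, of the first heart field, was lower, at 2.89, 2.07, 12.3 and 17.3 TPM, with 91 to 737 counts. Replicate 3 was lowest for Nkx2-5 and Isl1 but not for Tbx5, where replicate 2 was. All 19 genes of the second heart field list were detected, and 8 of the 13 with a range above 2-fold were highest in replicate 4 and none in replicate 3. Its members Six2, at 2.85, 2.78, 3.85 and 7.81 TPM, and Osr1, at 5.06, 5.83, 1.66 and 4.72 TPM, were low. The TALE factor gene Meis1, at 90.1, 92.5, 57.96 and 96.8 TPM, was among the highest. Tbx3, a factor of the inflow tract and conduction system, was at 3.56, 2.398, 49.5 and 20.6 TPM, highest in replicate 3.

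Genes of the primitive streak were mostly low, with a few exceptions. Of 16 such genes 8, or 50%, were detected, near the 55.2% of all genes. All 8 had a range above 2-fold, 6 of them highest in replicate 3 and 2 in replicate 4. Without replicate 3, 5 of the 8 had one. T, or Brachyury, was at 0, 0.352, 4.35 and 4.03 TPM and Mixl1 at 1.98, 1.81, 15.02 and 0.845 TPM. Eomes, a T-box factor that precedes Mesp1, was higher, at 15.1, 18.1, 74.4 and 7.604 TPM. Replicate 3 had the most Eomes and replicate 4 the least, while T was alike in both. The gene at the top of this list was Foxh1, a partner of SMAD2, at 97.9, 101, 288 and 489 TPM, which held 79.0% of the list's summed TPM. Snai1, a driver of the epithelial-to-mesenchymal transition, was at 9.83, 10.999, 32.7 and 14.6 TPM.

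**Figure D3:**
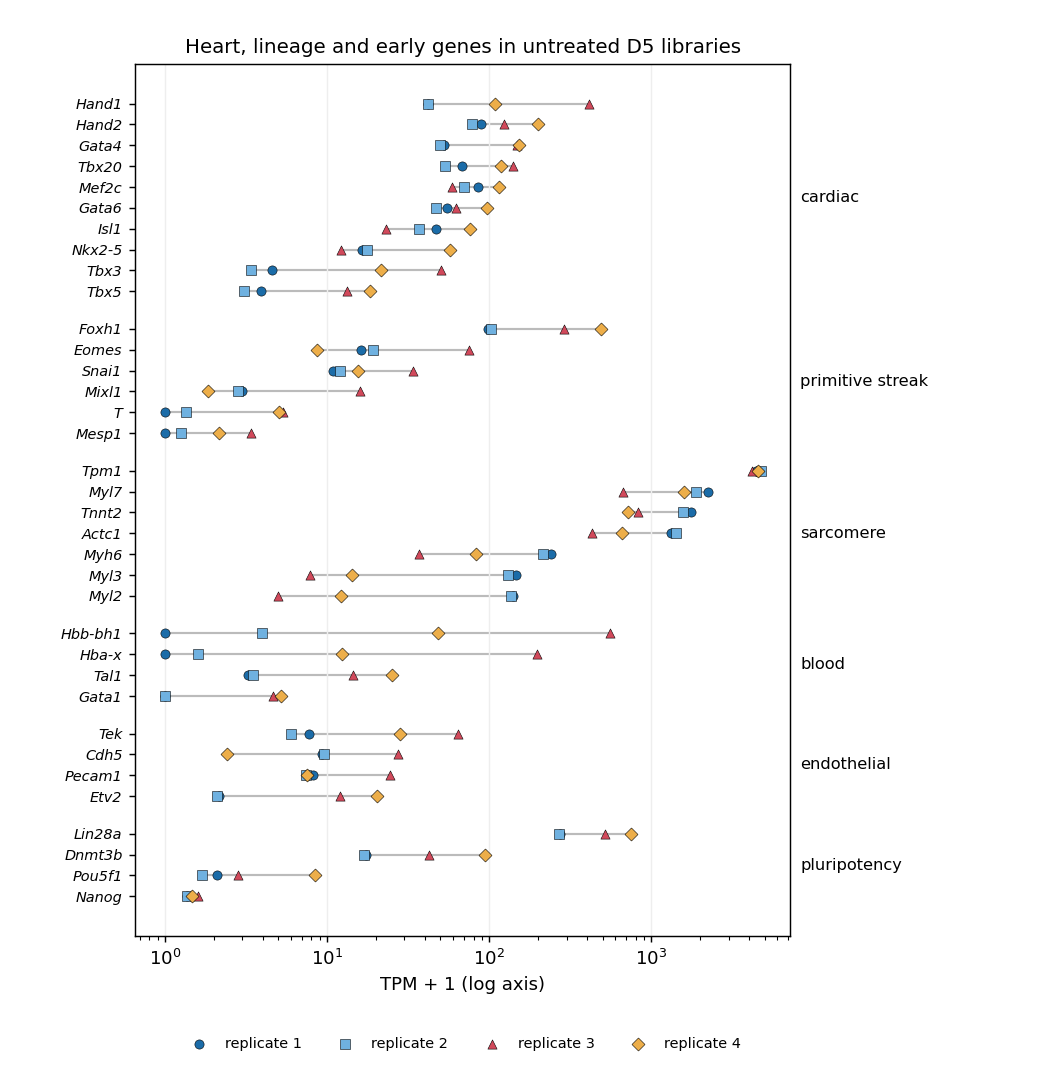
Levels of heart, lineage and early genes in the 4 untreated D5 libraries, as TPM + 1 on a log axis, with a grey line from the lowest to the highest library. The sarcomere genes drawn other than Tpm1 lie to the right in replicates 1 and 2, whereas the cardiac factor, primitive streak, blood, endothelial and pluripotency genes drawn are each highest in replicate 3 or replicate 4. Hbb-bh1 runs from 0 to 558 TPM.

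Contractile genes were high. The 27 sarcomere genes summed to 21024, 21274, 10596 and 11316 TPM, and 26 were detected. Of the 22 with a range above 2-fold, 15 were highest in replicate 1, 6 in replicate 2 and 1, Acta1, in replicate 4. The atrial light chain gene Myl7 was at 2237, 1872, 665 and 1591 TPM, cardiac troponin T, Tnnt2, at 1754, 1561, 821 and 719 TPM and cardiac actin, Actc1, at 1318, 1415, 430.0 and 662 TPM. Myh6, the alpha myosin heavy chain gene, was at 241, 214, 35.995 and 82.4 TPM. Myl2, the ventricular light chain gene, was the most uneven of these, at 139.7, 134, 3.997 and 11.1 TPM, with 28 to 1020 counts. Tpm1 was the even one, at 4436, 4721, 4168 and 4576 TPM. Cox6a2, a striated muscle subunit of cytochrome oxidase outside this list, ran with Myl2, at 41.8, 53.01, 2.07 and 3.09 TPM. The 22 sarcomere genes with a range above 2-fold were lowest in replicate 3 (15 genes) or replicate 4 (7 genes). The 25 core factors with such a range were highest in replicate 4 for 15 genes and in replicate 3 for 5, but lowest in replicate 3 for 10 and in replicate 2 for 10. The share of cells that each library took from each cell type was not measured.

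Many contractile genes are known to be read by serum response factor (SRF) through a CArG box of 10 letters in the promoter. RefSeq promoters of assembly GRCm38.p6, 250 bases before each start, were available as 30 windows for 22 of the 27 sarcomere genes. A CArG box was searched by its strict form, which is its own reverse complement. It stood in 8 of the 30 windows, 26.7%, against 1.36% of all 19069 windows of genes in the table. The smooth muscle, fibroblast and matrix list had it in 0 of 12 windows, which cover only 11 of its 19 genes. Looser forms of the box and letters further from the start were not searched. WNT transducers and targets had it in 2 of 14 windows, and primitive streak factors in 2 of 15. No test of enrichment was made. The 8 sarcomere windows belong to 7 genes, Ldb3 having a pair of overlapping windows. The 150 bases before the start are given below 5′ to 3′ on the strand of the gene for the 5 genes with 1 such window and the box within 100 bases of the start, with the box in capitals, since they show the shared letters most plainly.
Myl7, chr11:5898783-5898932, minus strand: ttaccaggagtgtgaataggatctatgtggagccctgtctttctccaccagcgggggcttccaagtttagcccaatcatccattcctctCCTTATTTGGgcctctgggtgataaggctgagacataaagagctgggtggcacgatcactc
Actc1, chr2:114052876-114053025, minus strand: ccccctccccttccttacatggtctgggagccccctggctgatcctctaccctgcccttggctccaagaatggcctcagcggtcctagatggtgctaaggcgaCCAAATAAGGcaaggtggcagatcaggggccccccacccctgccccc
Acta1, chr8:123894776-123894925, minus strand: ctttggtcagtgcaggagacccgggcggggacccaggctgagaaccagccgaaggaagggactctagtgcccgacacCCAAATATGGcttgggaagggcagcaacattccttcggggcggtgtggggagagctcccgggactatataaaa
Myl3, chr9:110763528-110763677, plus strand: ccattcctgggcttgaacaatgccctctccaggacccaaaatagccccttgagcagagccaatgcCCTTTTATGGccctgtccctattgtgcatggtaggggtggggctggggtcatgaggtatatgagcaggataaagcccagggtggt
Myom1, chr17:71019407-71019556, plus strand: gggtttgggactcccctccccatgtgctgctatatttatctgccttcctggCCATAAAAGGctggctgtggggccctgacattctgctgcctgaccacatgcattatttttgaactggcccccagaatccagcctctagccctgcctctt
The box began 61 bases before the start in Myl7, 47 in Actc1, 73 in Acta1, 85 in Myl3 and 99 in Myom1. Of these 5 genes, the ones highest in replicates 1 and 2 were Myl7, Actc1, Myl3 and Myom1, the last at 109.8, 102, 15.04 and 10.7 TPM, while Acta1, skeletal actin, was at 175, 192, 116 and 241 TPM. Myl3, the other ventricular light chain gene, was at 145, 129.9, 6.897 and 13.3 TPM. Srf itself ran the other way from these, at 48.7, 53.5, 66.8 and 142 TPM, and its cofactor gene Myocd was at 38.5, 34.9, 13.6 and 50.1 TPM. A match of letters shows neither binding nor use of the site. Some genes without the box, such as Myl2, were likewise higher in replicates 1 and 2 than in replicates 3 and 4, while Acta1 was not.

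Genes of calcium handling and of the channels were more mixed. Atp2a2, the calcium pump of the sarcoplasmic reticulum, was at 464, 458, 417 and 501 TPM and its range overlapped no other gene of the list. Its regulator gene Pln, in contrast, was at 40.4, 33.6, 0.581 and 1.23 TPM, with 14 to 1100 counts and a mean of 18.96 TPM that was 11.8 TPM without replicate 1. Slc8a1, the sodium-calcium exchanger, was at 59.6, 55.2, 13.8 and 7.33 TPM. The connexin genes Gja1, at 201, 199, 296 and 287 TPM, and Gjc1, at 85.97, 83.2, 90.2 and 109 TPM, were detected throughout, and the later connexin Gja5 was under 1 TPM.

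Blood genes were spread unevenly over the libraries. The 16 blood genes summed to 22.4, 21.6, 915 and 154 TPM, and the mean of 278 TPM was 66.1 TPM without replicate 3. The embryonic globin gene Hbb-bh1 alone held 54.6% of that sum, at 0, 2.95, 558 and 47.3 TPM. Hba-x, the embryonic alpha globin, was at 0, 0.6, 196 and 11.3 TPM. All 12 detected blood genes had a range above 2-fold, and each was highest in replicate 3 (7 genes) or replicate 4 (5 genes). The haematopoietic factor gene Tal1 was highest in replicate 4, at 2.23, 2.51, 13.4 and 24.1 TPM, as was the vascular and blood initiator Etv2, at 1.14, 1.09, 10.997 and 19.4 TPM. Hba-a2, at 0, 0, 87.2 and 9.32 TPM, had 0 counts in every D5 column of the count table, so its TPM rests on reads that the counts did not hold. It is still included in the sums and gene counts given here for this list. Ptprc, which marks mature white blood cells, was under 1 TPM.

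All 15 endothelial genes were detected, at a summed 101, 102, 266 and 119.8 TPM. All 15 had a range above 2-fold, 12 of them highest in replicate 3, and 6 had one without replicate 3. Pecam1 was at 7.14, 6.46, 23.5 and 6.49 TPM and the junction gene Cdh5 at 8.25, 8.53, 26.6 and 1.41 TPM. Flt1, the decoy VEGF receptor, had another order, at 30.96, 40.2, 19.2 and 15.4 TPM. The blood and endothelial sums were both highest in replicate 3 and next highest in replicate 4. Replicate 4 did not hold that place across the endothelial genes: 6 of the 15 were lowest in it and 1 was highest. The part of blood and endothelial cells in the other differences between libraries was not tested.

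Genes of smooth muscle, fibroblasts and matrix were all detected, 19 of 19, at a summed 12216, 13672, 7678 and 6756 TPM. Of these, 12 had a range above 2-fold, 11 of them lowest in replicate 4, and 4 had one without replicate 4. Vim, the mesenchymal intermediate filament gene, was even, at 1267, 1419, 1356 and 1185 TPM, and Tagln, an early smooth muscle and cardiac gene, was at 2135, 2318, 1447 and 2490.2 TPM. The collagen gene Col3a1 was at 134, 134, 41.6 and 3.07 TPM and the matrix gene Sparc at 1089, 1123, 791 and 545 TPM. Acta2 belongs to this list as well as to that of the sarcomere, and made up 38.5% of its sum.

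Markers of other lineages were few. Of 14 genes of paraxial mesoderm and skeletal muscle 3 were detected and 6 were listed at 0 in every library. Meox1 was at 3.71, 2.43, 2.73 and 0.817 TPM, and the myogenic factor genes Myf5 and Myod1 were under 1 TPM. Of 16 endoderm genes 4 were detected, and Foxa2 was at 0.329, 0.319, 0.214 and 0.13 TPM with 3 to 8 counts. Among the endoderm genes Pyy stood out in replicate 4, at 1.401, 0, 1.69 and 51.5 TPM. Of 17 neural genes 6 were detected. Nes, which heart and muscle progenitors also express, held 85.8% of the neural sum, at 212, 242, 125 and 215 TPM. Sox2, of neural and pluripotent cells, was at 10.9, 10.6, 12.7 and 1.58 TPM, and the neuronal tubulin gene Tubb3 at 6.01, 6.82, 10.3 and 43.2 TPM, so that replicate 4 was lowest for the first of these and highest for the other.

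Of 14 genes of surface ectoderm and epithelium 5 were detected. The simple keratin genes Krt8, at 369, 418, 472 and 534 TPM, and Krt18, at 319.8, 360.5, 396 and 438 TPM, stood far above the rest and differed by less than 2-fold over the libraries. The epithelial adhesion genes Cdh1, at 3.17, 3.72, 0.67 and 4.93 TPM, and Epcam, at 1.103, 0.821, 1.48 and 4.75 TPM, stayed below 5 TPM in every library. N-cadherin, Cdh2, the adhesion gene of mesoderm, was at 215, 214, 204 and 139 TPM.

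The lateral plate mesoderm factor genes were led by Twist1, at 87.4, 96.6, 195 and 115 TPM, and Prrx2, at 48.7, 44.4, 64.2 and 152 TPM. Tcf21, of the pharyngeal and epicardial mesoderm, was at 10.5, 9.48, 4.45 and 23.03 TPM, and Foxf1a, an older name of Foxf1, at 0, 0.389, 4.48 and 3.63 TPM. The SOX factor genes Sox4, at 50.9, 51.9, 69.5 and 92.5 TPM, Sox11, at 60.1, 59.7, 51.8 and 61.3 TPM, and Sox12, at 50.3, 53.4, 43.4 and 46.9 TPM, which form the SOXC group, were the highest of 20 SOX genes, of which 11 were detected. Their ranges overlapped with each other and not with that of Sox9, the next, at 14.6, 13.5, 19.2 and 18.4 TPM.

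Genes of the pluripotent state were mostly low. Of 17 genes 7, or 41.2%, were detected, against 55.2% of all genes. Nanog was at 0.361, 0.369, 0.606 and 0.46 TPM, with 5 to 9 counts, and Pou5f1, or Oct4, at 1.08, 0.689, 1.82 and 7.41 TPM. Dnmt3b, the de novo methyltransferase of the epiblast, was at 16.3, 15.9, 41.8 and 92.6 TPM. Lin28a, the RNA-binding protein that blocks let-7 maturation, was high, at 272, 269.9, 516 and 744 TPM. It held 80.7% of the list's sum, and its values in replicates 3 and 4 lay above those in replicates 1 and 2. Lin28a belongs as well to a group of 11 developmental timing genes, all of them detected at 10 TPM or more. Of that group Hmga2 was at 427, 389, 529.6 and 622 TPM, Igf2bp1 at 137, 146, 169.9 and 176 TPM and Igf2bp2 at 151, 158, 170.1 and 176 TPM, with the narrow spread that 8 of the 11 genes shared.

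HOX genes, whose order along 4 clusters follows their order of use from head to tail, were detected mainly from the 3′ end of the clusters. Of the 8 genes of paralogue groups 1 to 3 measured, 7 were detected, against 7 of 31 in groups 4 to 13. Hoxb2 was the highest, at 30.4, 29.9, 69.1 and 67.02 TPM, followed by Hoxb3, at 25.02, 26.6, 43.98 and 43.5 TPM. Hoxb1, which marks the posterior second heart field, was the most uneven, at 2.06, 1.93, 19.7 and 48.9 TPM. Genes of groups 1 to 3 summed to 84.8, 85.3, 168 and 191 TPM, so that replicates 3 and 4 were alike. Most of this difference lay in the HoxB genes, at a summed 57.5, 58.5, 133 and 159 TPM. The HoxA genes of these groups changed little, at 26.7, 26.6, 30.4 and 29.9 TPM, and the HoxD genes were low, at 0.533, 0.249, 5.11 and 2.12 TPM. Genes of groups 4 to 13 summed to 8.62, 7.56, 39.8 and 5.73 TPM, and here replicate 3 stood alone: of the 31 genes 20 were highest in it and 10 reached 1 TPM in it, against 3, 3 and 1 in replicates 1, 2 and 4. The members of groups 4 to 13 were low, none above 10 TPM in any library, and without replicate 3 the number of HOX genes with a range above 2-fold was 5, against 11 with it.

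**Figure D4:**
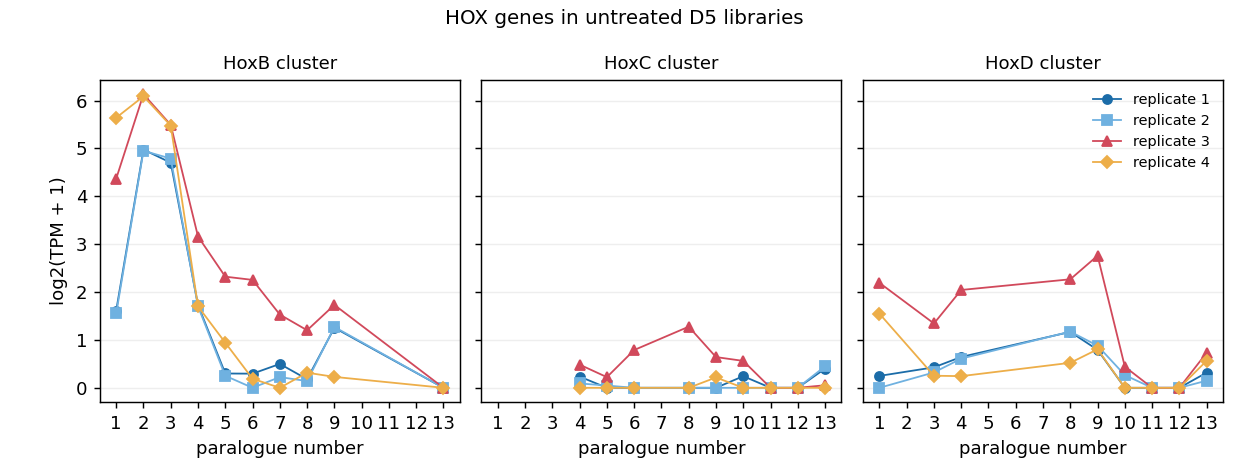
HOX genes of the HoxB, HoxC and HoxD clusters by paralogue number in the 4 untreated D5 libraries, as log2(TPM + 1). Hoxb2 and Hoxb3 are well above 0 in all libraries, Hoxb1 is high in replicates 3 and 4, and replicate 3 lies highest at paralogue numbers 4 to 9 in each cluster.

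Imprinted genes, which are expressed from the copy of 1 parent, were high as a list: 20 of 20 were detected, with a median of 337 TPM, and they summed to 14699.6, 14832, 16809.9 and 12806 TPM. Igf2 was at 4984, 5144, 5311 and 3959 TPM and Mest at 2332, 2148, 4464 and 3009 TPM. Phlda2, a growth-restraining gene of the placenta, was the most uneven, at 10.5, 8.59, 133 and 152 TPM, and the cell cycle inhibitor gene Cdkn1c was at 487, 454, 307 and 269.8 TPM.

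Cell cycle genes were expressed in every library. All 26 of the list were detected, and their sum differed little, at 5054, 4900.1, 5542 and 5332 TPM. Mki67 was at 75.8, 78.9, 135 and 131 TPM, Pcna at 412, 368, 544 and 536 TPM and Cdk4 at 908, 882, 862 and 1003 TPM. Of the 26, 2 had a range above 2-fold. One was the inhibitor gene Cdkn1a, at 256, 269, 144 and 59.5 TPM. Cdkn1a was higher in replicates 1 and 2 than in the other libraries, whereas Mki67 was lower in replicates 1 and 2. The other was Ccne2, a value that the count table did not share and that is taken up below. Cyclin D genes split, with Ccnd2 at 649.7, 652, 392 and 411 TPM and Ccnd1 at 109, 102, 152 and 126 TPM.

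Ribosomal protein genes varied little between libraries. None of the 35 ribosomal protein genes had a range above 2-fold, and they summed to 79472, 77587, 74742 and 87747 TPM, with 30 of the 35 highest in replicate 4. Glycolytic and oxidative genes were all detected, 26 of 26, and 4 had a range above 2-fold. Gapdh was at 2647, 2636, 2621 and 2673 TPM, Atp5b, a subunit of ATP synthase, at 1725, 1699, 1579 and 1400.1 TPM and Pkm2, the older name of Pkm, at 918, 894, 1158 and 1111 TPM. The chaperone gene Hspa8 was at 2275, 2249.7, 2491 and 2585 TPM and the immediate early gene Egr1 at 5.63, 6.27, 33.2 and 30.3 TPM, the second with replicates 3 and 4 above replicates 1 and 2.

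**Figure D5:**
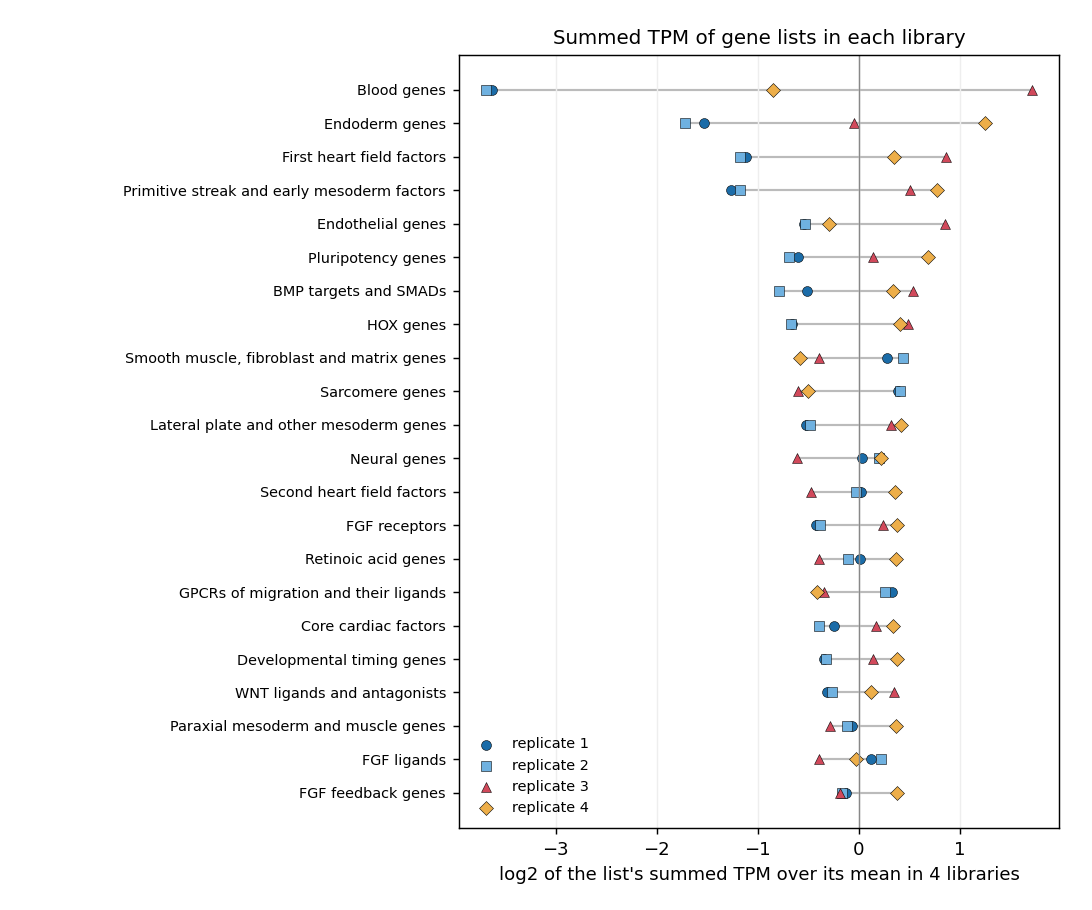
Summed TPM of gene lists in each of the 4 untreated D5 libraries, as the log2 of the sum over the mean of the 4 sums, for the 22 lists with at least 3 detected genes that differ most. Blood genes have the widest spread, from 21.6 TPM in replicate 2 to 915 TPM in replicate 3. In 4 lists replicates 1 and 2 both lie to the right of replicates 3 and 4. These are the lists of the sarcomere, of smooth muscle and matrix, of FGF ligands, and of G protein-coupled receptors (GPCRs) of migration with their ligands. The last 2 rest on 1 gene each. Without Fgf10 the FGF ligands summed to 45.4, 49.9, 50.1 and 75.6 TPM in replicates 1 to 4. Without the ligand gene Cxcl12 the GPCR list summed to 169, 179, 232 and 277 TPM.

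Among the 15 genes of the table with the largest SD of log2(TPM + 1) and a mean of at least 5 TPM, predicted names left out, 3 are globin genes. Hba-a2, with 0 counts in every D5 column, is among these. Cxcl12, Pln, Myl2, Col3a1 and Cox6a2, given above, were high in replicates 1 and 2, and so were Krt20, an intestinal keratin gene, at 35.6, 36.6, 2.93 and 0.476 TPM, Nupr1, a stress-induced chromatin gene, at 21.7, 30.9, 1.11 and 0 TPM, Fam129a, at 20.9, 25.02, 0.514 and 0.406 TPM, and the mitochondrial gene Chchd10, at 43.7, 48.5, 3.04 and 1.85 TPM. Aplnr was high in replicates 3 and 4, and Pyy in replicate 4 alone. Raet1a, at 34.6, 10.1, 0 and 1.35 TPM, had at most 11 counts in any D5 column although it averaged 11.5 TPM, so its TPM could not be checked.

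The count table gave another view of the same spread. Of 10140 genes with a mean of at least 5 TPM and of at least 5 CPM (counts scaled to a fixed library total), 1029 had a range above 2-fold in TPM, 1037 in CPM and 1001 in both. Of the 1029, 4 had a range under 1.5-fold in CPM, among them Ccne2, at 60.2, 33.3, 70.9 and 35.5 TPM, with a range of 1.27-fold in CPM. A further 89 genes with a mean of at least 5 TPM had fewer than 10 counts in the D5 columns together, and they held 1.24% of all TPM. These included genes with near-identical copies elsewhere in the genome, such as Rpl26 at 679.6 ± 56.02 TPM and Oaz1 at 85.9 ± 9.796 TPM, both with 0 counts, which were named after their values were seen. Hmga1 was in a like position, at 60.1, 86.3, 176 and 219 TPM with 8 to 18 counts. The levels of such genes depend on how reads shared between copies were assigned, which is not given in the sources used here.

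The letters of RefSeq promoters were described by level, in 19069 windows of 15725 genes. TATAAA, searched on the strand of the gene between 40 and 20 bases before the start, stood in 5.72% of windows of genes listed at 0, in 2.71% above 0 and below 1 TPM, in 1.62% at 1 to 10 TPM, in 0.659% at 10 to 100 TPM, in 1.09% at 100 to 1000 TPM and in 2.48% at 1000 TPM or more, against 2.38% of all windows. The last share rests on 3 of 121 windows. The observed over expected frequency of the CpG dinucleotide was higher at higher levels: the median over windows was 0.179, 0.380, 0.617, 0.774, 0.831 and 0.871 in the same 6 classes. Sarcomere windows were at 0.237, near the value of genes listed at 0 although the genes were high, and ribosomal protein windows at 0.927. A CArG box stood in 4.13% of windows of genes at 1000 TPM or more, 5 of 121.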

How the data were processed

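The deposited table holds TPM (transcript levels that the authors scaled to each gene's length and each library's total) for 4 D5 libraries. The deposited count table holds raw counts per gene, and its 4 D5 columns carry numbers that match no replicate label, so they were tied to no replicate. Its other 14 columns, and the authors' comparison tables, were not used here. The aligner, the counting program and the genome build, not given in the sources used here, could shift levels of genes with similar copies. Nothing states that the libraries came from separate cultures, so the spread may be in part technical.

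Levels are means ± SD over 4 libraries. Agreement and ranges were computed on log2(TPM + 1) for genes with a mean of at least 1 TPM, in Python 3.11.15 with pandas 2.3.3 and numpy 2.4.6. Counts were described with edgeR 4.0.16 in R 4.3.3 after its filter at a minimum count of 10, with DESeq2 1.42.0 size factors as an alternative. The steps were tested on simulated data. With 1 group, no test between groups was made and no p-value is given. A pair of libraries was also set against sampling noise by a chi-square statistic on counts.

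The gene lists were chosen with earlier results of these data known. Named genes are fixed anchors, up to 4 highest members of each list and its most variable member by the SD of log2(TPM + 1), the 12 highest genes and the 15 most variable genes with a mean of at least 5 TPM. A few further list members were named after their values were seen, and a few genes are not reported here. 6 genes were matched by an older name (Cxcr7 is Ackr3, Gm10664 is Apela, Sfpi1 is Spi1, Foxf1a is Foxf1, Mtap2 is Map2 and Pkm2 is Pkm). Promoter windows are from RefSeq on GRCm38.p6. Alternatives were leaving out each library, other minimum levels and pseudocounts, the median, TMM, totals without ribosomal protein genes, and averaging replicates 1 and 2.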

Additional observations from a re-analysis of the deposited data

Results flagged for a closer look

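Among 230 named genes, 23 had 1 library whose distance to its nearest neighbour took up more of the range of the 4 libraries than Dixon's critical value at the 95% level allows, and so did 6 of 44 sums over gene lists. Chance gives about 1 in 20 for groups of samples not picked for their spread, and some of these genes were named for theirs, so the count is not set against it. The shares of the range below are given for each.

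Replicate 3 stood above the other 3 libraries for 9 genes. Among blood and endothelial genes these were Hbb-bh1 (0.915), Hba-x (0.942), Hba-a2 (0.893), which had 0 counts in every D5 column, and the junction gene Pecam1 (0.960). Among primitive streak factors they were Eomes (0.843) and Mixl1 (0.920). The others were Rspo3, a WNT enhancer (0.880), Nrarp, a Notch feedback gene (0.906), and the mesenchymal factor Twist2 (0.939). The sums over endothelial genes (0.887) and blood genes (0.851, Hba-a2 included) were also highest in replicate 3. Replicate 3 stood below the others for Bmp7 (0.869) and Sox11 (0.834).

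Replicate 4 stood above the others for 9 genes. These were the cardiac factor Nkx2-5 (0.879), the pluripotency factor Pou5f1 (0.832), the Hedgehog ligand Ihh (1.0), which was listed at 0 in the other 3 libraries, the FGF feedback gene Il17rd (0.920), the retinol receptor Stra6 (0.988), the neuronal tubulin Tubb3 (0.885), the epithelial gene Epcam (0.832), the gut hormone Pyy (0.967) and the ribosomal protein gene Rps4x (0.869). The sum over FGF feedback genes (0.903) was highest there too. Replicate 4 stood below the others for N-cadherin, Cdh2 (0.853), and for Spop, a ubiquitin ligase adaptor for GLI proteins (0.854). It also stood below for the sums over BMP receptors (0.867), adhesion genes (0.943) and genes of glycolysis and oxidative metabolism (0.835).

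Replicate 2 stood above the others for 1 gene, Lrp2, an endocytic receptor (0.919). No named gene had replicate 1 apart from the rest by this measure. The measure uses the distance to the nearest neighbour, and replicates 1 and 2 were the closest pair. Only 0.403% of the 12888 detected genes differed by more than 2-fold between them on the scale of TPM + 1. A library with so close a neighbour is seldom set apart. The numbers of genes per replicate therefore do not show which libraries are unusual.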

How the results depend on the processing

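The number of genes detected, 12888, lay between 12794 and 12979 under each other scaling, the median over libraries and each library left out, and the median coefficient of variation of 14.3% became 11.4% to 14.8% with a library left out. The lowest correlation between 2 libraries, 0.950, was 0.967 with a minimum mean of 0.1 TPM, 0.930 with a minimum of 10 TPM and 0.930 with a pseudocount of 0.1. The 1977 genes with a range above 2-fold became 814 with a minimum of 10 TPM, and 1080 to 1809 with 1 library left out, fewest without replicate 4. The CPM of the D5 columns, an alternative chosen after seeing the data, gave 1884. The biological coefficient of variation that edgeR estimated, 26.7%, was 22.8% to 29.2% with a count column left out. All 230 named gene levels stayed within 1 SD of the reported mean under TMM. The median and the averaging of replicates 1 and 2 cannot pass that limit whatever the values, so they are no check of the levels by this measure. Leaving ribosomal protein genes out of the totals multiplied every level by about 1.2, which took 53 of them past 1 SD. Leaving out replicate 1, 2, 3 or 4 moved 2, 3, 16 or 20 of the 230 means by more than 1.5-fold. The cause of these differences was not tested. No paired analysis was possible because the table holds 1 group. Depth limits low values: a level near 1 TPM stood on a median of 24 counts per D5 column.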

Other observations

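Genes outside the lists and rules above also differed widely between libraries, and those named here were chosen after their values were seen. Nppa, the atrial natriuretic peptide gene, was at 105, 111, 9.58 and 12.5 TPM. Col2a1, a collagen gene of cartilage and notochord, was at 125, 134, 6.63 and 21.1 TPM. Both were high in replicates 1 and 2 and low in replicates 3 and 4, as most sarcomere genes were. Igfbp2, which encodes a binding protein for insulin-like growth factors, was at 355, 450.0, 255 and 32.5 TPM, lowest in replicate 4. Tnnt3, fast skeletal troponin T, ran the other way from most sarcomere genes, at 2.77, 3.53, 24.8 and 76.9 TPM. Ifitm1, an interferon-induced membrane protein gene, was at 9.25, 12.3, 47.1 and 198 TPM, also highest in replicate 4.

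Of the 1977 genes with a range above 2-fold, 403 were highest in replicate 1, 638 in replicate 2, 441 in replicate 3 and 495 in replicate 4, while 856 were lowest in replicate 4.

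The Y-linked genes Ddx3y, Kdm5d, Eif2s3y and Uty were listed at 0 TPM in all 4 libraries and had 0 counts in all D5 columns. Xist, the RNA of the inactive X chromosome, was at 0.142, 0.243, 0.214 and 0.216 TPM, with 6 to 14 counts. These are levels of a mouse embryonic stem cell line in culture.

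The TPM and count tables differed for a few genes. Syne1 was at 23.3, 0.116, 9.88 and 18.2 TPM, with 1188 to 3335 counts and a range of 2.72-fold in CPM. Atxn7l1 was at 12.7, 1.90, 1.79 and 13.1 TPM, with 257 to 271 counts and a range of 1.08-fold in CPM.

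By RefSeq gene type, protein-coding genes held 91.5% of all TPM and long noncoding RNA genes 0.501%, while 6.91% to 7.10% per library fell to names with no RefSeq match.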
